A study of Rattus norvegicus with 6 samples.

Results

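The ERK feedback and FGF response genes are 10 genes known to be switched on by growth factor signalling through the kinase ERK, several of which restrain that signalling in turn, namely the MAP kinase phosphatases Dusp1, Dusp4, Dusp5 and Dusp6, the inhibitors Spry1, Spry2, Spry4 and Spred1, and the transcription factors Etv4 and Etv5. They were taken by gene symbol from the 17048 rows of the count tables, where each has a single row, by a rule that uses no measured value. The list itself was chosen with earlier results of these data known. RNA was measured in 6 libraries of wild-type (WT) rat neural stem/progenitor cells (NSPCs), cells that can divide and give rise to neurons and glia, isolated from the telencephalon of Sprague-Dawley embryos and grown as spheres for at most a few passages. All cells were kept for 24 h in a stemness-maintaining medium, which holds EGF and basic FGF by the methods, on films of carbon nanotube and graphene oxide nanoribbon, and they differed in the film, labelled High, Medium or Low conductive, with 2 libraries for each. The films were made by oxidizing the carbon for different lengths of time, and the Medium film was coated from a weaker poly-D-lysine solution than the High and Low films before laminin was added. The labels name no batch and do not say whether the 2 libraries of a film came from separate cultures, so p-values measure the spread between these libraries alone, which may be technical. With 2 libraries a film, how the libraries were prepared and the film cannot be told apart.

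FGF binds receptor tyrosine kinases at the cell surface, which act through RAS, RAF and MEK to phosphorylate ERK. Phosphorylated ERK enters the nucleus and switches on target genes, among them the ETS factors ETV4 and ETV5 and a set of inhibitors that close feedback loops on the pathway. Dual-specificity phosphatases (DUSPs) remove the phosphates from ERK, and sprouty and spred proteins act upstream, between the receptor and RAF. In cultured neural progenitors, FGF and EGF are the signals that keep the cells dividing.

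Of the 10 genes, 8 were counted in at least 1 library and passed the filter on low counts, and Dusp4 and Spred1 were at 0 in all 6 libraries. Dusp6 was the gene with the smallest p of the 8, at a mean ± SD (n = 2 each) of 1151 ± 17.1 normalized counts per 1e6 (CPM) on the High film, 2538 ± 86.2 on the Medium film and 2421 ± 454 on the Low film. Etv5 was also higher in all 4 Medium and Low libraries than in either High library, by a smaller amount, and Dusp1 was counted in the High libraries alone. None of the 8 had an adjusted p under 0.05 by edgeR's quasi-likelihood test in any comparison of films. In bulk RNA such as this, fewer cells of a type and less RNA per cell cannot be told apart.

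RefSeq promoters of the rat build GRCr8, here the 250 bases before the annotated start, were on hand for 8 of the 10 genes. Dusp4 and Etv4 had none. The promoters of the 3 genes whose High libraries did not overlap with the Medium and Low libraries are shown 5′ to 3′ on the strand of the gene, in each case the plus strand, for Dusp6 at chr7:35979354-35979603, Etv5 at chr11:92113013-92113262 and Dusp1 at chr10:17184603-17184852. Capitals mark the cAMP response element TGACGTCA, the sequence bound by CREB and ATF factors.
Dusp6: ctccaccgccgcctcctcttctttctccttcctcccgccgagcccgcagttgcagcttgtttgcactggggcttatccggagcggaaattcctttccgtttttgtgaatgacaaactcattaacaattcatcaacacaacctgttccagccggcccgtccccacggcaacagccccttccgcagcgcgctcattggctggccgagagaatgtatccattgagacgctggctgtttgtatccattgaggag
Etv5: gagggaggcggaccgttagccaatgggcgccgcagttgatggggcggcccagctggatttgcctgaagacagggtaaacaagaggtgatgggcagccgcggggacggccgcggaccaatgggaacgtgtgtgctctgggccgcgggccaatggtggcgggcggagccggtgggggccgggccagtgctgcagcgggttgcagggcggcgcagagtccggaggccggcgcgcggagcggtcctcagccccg
Dusp1: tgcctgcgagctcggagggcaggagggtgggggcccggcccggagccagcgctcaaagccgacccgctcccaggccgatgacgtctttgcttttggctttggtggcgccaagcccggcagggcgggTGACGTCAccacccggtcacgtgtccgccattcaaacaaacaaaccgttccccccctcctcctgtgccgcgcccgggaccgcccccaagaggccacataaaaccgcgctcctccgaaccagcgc
The motifs were searched on both strands, and they do not overlap with each other in these windows. TGACGTCA was found in 1 of the 8 genes, Dusp1, with its first base 124 bases before the start, and in 1.59% of all 33469 promoters of the same length. Neither the AP-1 site TGANTCA nor the ETS site CCGGAAG was found in any of the 8 genes, against 6.34% and 7.27% of all promoters, which says only that these letters are not in these windows. The GC content was 55.6% for Dusp6, 72.4% for Etv5 and 68.8% for Dusp1, beside a median of 51.2% over all promoters, with quartiles of 44% and 60%.

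Total counts ran from 5124863 to 6213676 per library, and 7729 genes passed the filter. Rows with a count numbered 5355 in Medium replicate 1 and 6689 to 7809 in the other libraries. Ribosomal RNA took 26.1% and 38.4% of the counts in the High libraries, against 7.16% to 13.0% in the other 4. Replicates were uneven, with a biological coefficient of variation of 1.43, and between 8.26% (Low) and 12.2% (Medium) of the 17048 rows had 0 counts in 1 library of a film and at least 50 in the other. The stem/progenitor markers Nes, Sox2 and Vim were counted in every library, whereas Hes5 and Prom1 of the same list were at 0 throughout. Summed over the 9 listed markers in the tables, stem/progenitor markers reached 2575 to 2911 CPM on the High film, against 4132 to 4526 on Medium and 3695 to 4711 on Low. Neuron markers summed to 12.4 to 12.6 CPM (High), 0.17 to 0.98 (Medium) and 29.7 to 33.9 (Low), with Rbfox3 and Syt1 at 0. These sums hide uneven replicates. In High, Stmn2 had 60 and 0 counts and Snap25 had 0 and 52. In Low, Map2 had 138 and 20 counts, Dcx 0 and 85, and Tubb3 96 and 72. Astrocyte markers summed to 64.1 to 110 CPM over all 6 libraries. Oligodendrocyte lineage markers summed to 326 to 413 CPM (High), 510 to 556 (Medium) and 619 to 748 (Low), with Sox10 at 0. Of the 6 microglia markers 5 were at 0, and meningeal and vascular markers reached 338 CPM in Medium replicate 2 and at most 35.8 elsewhere. Col1a1 alone gave 329 of those 338 CPM, and 5 of the 8 meningeal and vascular markers were at 0 in all libraries. The part of these differences in the results on the ERK genes was not tested.

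Dusp6 encodes the phosphatase of the cytoplasm that acts chiefly on ERK. The High libraries held 5530 and 4877 Dusp6 counts, the Medium libraries 14435 and 15848, and the Low libraries 18925 and 12511. The lowest of the 4 Medium and Low libraries, Low replicate 2 at 2100 CPM, stood well above the higher High library at 1164 CPM, and the Medium and Low libraries overlapped with each other. Over Low and Medium together, Dusp6 was 2.15-fold the High level, a log2 fold change of 1.11 ± 0.20 (SE; 95% interval 0.66 to 1.55). By edgeR's quasi-likelihood test this gave an unadjusted p of 0.000267, rank 21 among the 7729 genes, and an adjusted p of 0.0982. DESeq2, which models the spread of each gene in another way, gave an adjusted p of 5.2e-08. Against High, Medium alone was 2.20-fold (edgeR adjusted p = 0.242) and Low alone 2.10-fold (adjusted p = 0.330), while Low and Medium differed by -0.07 on the log2 scale (95% interval -0.56 to 0.42). The stem/progenitor markers given above were also higher in sum in all 4 Medium and Low libraries, a sum made up mostly of Vim. Of the 7 markers with a count, Nes, Sox2 and Vim were higher in all 4 libraries, with edgeR adjusted p-values of 0.468, 0.212 and 0.778, and Pax6, Fabp7, Notch1 and Hes1 overlapped between High and the others (log2 fold changes 1.16, -0.60, -0.25 and -0.82). Leaving the ribosomal RNA rows out before normalization gave Dusp6 a log2 fold change of 1.10 (edgeR adjusted p = 0.0737).

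**Figure D1:**
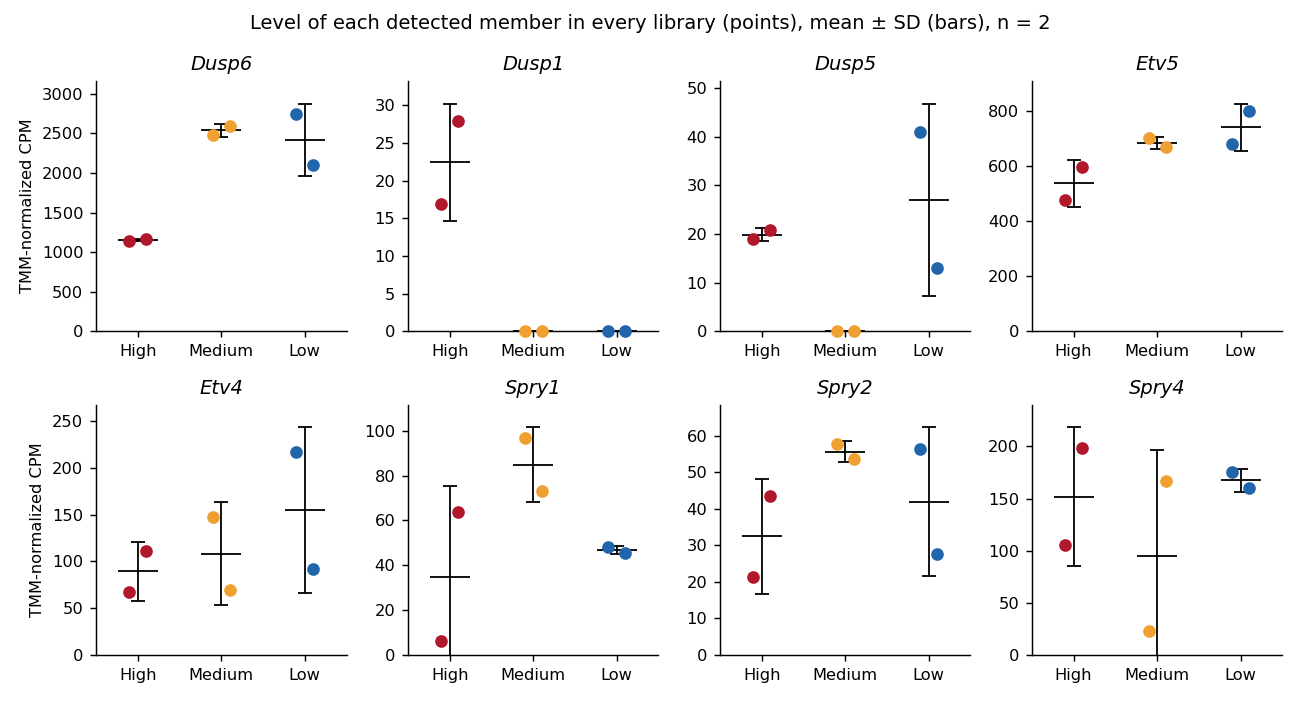
Level of the 8 detected genes in each library, in TMM-normalized CPM on a linear axis from 0, by film. Points are libraries, and bars give the mean ± SD (n = 2), with the part of an SD bar below 0 not drawn; Dusp6 lies between 1139 and 1164 CPM in High and between 2100 and 2742 CPM elsewhere, and Dusp1 is above 0 in High alone.

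Scaling by library sizes alone, which shifts the median of all genes by 0.38 on the log2 scale towards Low and Medium, raised the log2 fold change of Dusp6 to 1.50 (edgeR adjusted p = 0.0386). Its ratio to Etv5 within a library needs no scaling, and it was 2.40 and 1.95 for the High libraries, 3.54 and 3.89 for the Medium and 4.03 and 2.62 for the Low libraries. The mean ratio was 3.52 ± 0.63 over the 4 Low and Medium libraries (SD, n = 4) and 2.17 ± 0.32 in High (n = 2), with no overlap. An exact two-sided permutation test gave p = 0.133, which is the smallest that 4 libraries against 2 can give.

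The ETV factors came next. ETV5, with ETV4 a member of the PEA3 group of ETS transcription factors, is a standard readout of FGF signalling. Etv5 reached 2308 and 2504 counts (High), 4075 and 4078 counts (Medium), and 4691 and 4768 counts (Low). At 476 and 597 CPM, the High libraries lay below the other 4, which ran from 669 to 800.3 CPM. The gap between the nearest libraries was narrower than that between the 2 High libraries. Etv5 was 1.33-fold higher in Low and Medium together, a log2 fold change of 0.41 ± 0.24 (95% interval -0.14 to 0.95), with an edgeR adjusted p of 0.801 and a DESeq2 adjusted p of 0.416. Low and Medium differed by 0.11 (95% interval -0.50 to 0.73).

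Counts of Etv4 on High were 326 and 466, on Medium 859 and 421, and on Low 1498 and 546. All 3 films overlapped, the levels being 67.2 and 111 CPM (High), 147 and 69.1 CPM (Medium), and 217 and 91.6 CPM (Low). In Medium and in Low the gap between replicates was wider than any gap between the means of 2 films. Its log2 fold change of 0.54 ± 0.70 for Low and Medium against High had a 95% interval of -1.03 to 2.10, which holds both a lower and a several-fold higher level.

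The inducible nuclear phosphatases did not follow Dusp6. DUSP1, which acts on p38 and JNK as well as ERK and is an immediate early gene, had 82 and 117 counts in the High libraries and 0 in all 4 of the others. Its High level of 22.4 ± 7.79 CPM was at least 46.1-fold above the level that 3 counts per library would give in Low and Medium, with counting error alone covered by that floor. The edgeR adjusted p was 0.801 (unadjusted 0.0337) and the DESeq2 adjusted p 0.0660. Of the 7729 genes tested, 37 (0.479%) were likewise over 3 counts in both High libraries and at 0 in the other 4, and 47 (0.608%) showed the reverse. Dusp1 was at 0 counts in the 4 libraries in which Dusp6 was high, and it passed the filter through its High libraries alone. Pearson's r of log2(CPM + 1) between the genes was -0.97 over the 6 libraries, which share films and scaling. With Dusp1 at 0 in those 4 libraries, this r restates the step between High and the rest. A 0 is not a firm bound, as 8.26% (Low) to 12.2% (Medium) of all rows had 0 counts in 1 library of a film and at least 50 in the other.

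DUSP5 is a nuclear phosphatase selective for ERK. Its gene gave 92 and 87 counts on the High film, none in either Medium library, and 283 and 78 counts on the Low film. High and Low overlapped, at 19.9 ± 1.27 CPM and 27.0 ± 19.7 CPM. Medium stood apart, at least 39.4-fold below High and at least 53.7-fold below Low at the floor of 3 counts per library, which covers counting error alone. Medium replicate 1 was also the library with the fewest rows counted, at 5355. Medium replicate 2, equally at 0 for Dusp5, had the most, at 7809. By edgeR these differences had adjusted p-values of 0.908 and 1 (unadjusted 0.0577 and 0.0526), and by DESeq2 of 0.0151 and 0.0193. A count of 0 in both Medium libraries beside more than 3 in each of the others was seen in 38 of the 7729 genes (0.492%). DUSP4, the other inducible nuclear phosphatase of the list, was at 0 in all 6 libraries. Counting error alone would allow at most 0.435 to 0.716 CPM per library, but a 0 is not a firm bound on the level. Between 8.26% (Low) and 12.2% (Medium) of all rows had 0 counts in 1 library of a film and at least 50 in the other.

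The sprouty and spred inhibitors gave no common direction. Sprouty proteins are induced by FGF and block the activation of RAS and RAF. Spry1 reached 30 and 267 counts (High), 563 and 445 counts (Medium), and 332 and 271 counts (Low). Medium lay above both other films at 84.8 ± 16.7 CPM, Low was at 46.8 ± 1.85 CPM, and the 2 High libraries, at 6.18 and 63.7 CPM, lay on either side of Low. High replicate 1 therefore set the direction. The log2 fold change of Low and Medium against High was 0.85 ± 1.32, and it was -0.014 without High replicate 1 and 3.34 without High replicate 2.

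Spry2, with counts of 104 and 183 (High), 337 and 327 (Medium), and 389 and 164 (Low), was highest on average on the Medium film. Its levels were 32.5 ± 15.7 CPM (High), 55.7 ± 2.97 CPM (Medium) and 41.9 ± 20.4 CPM (Low), and the Low libraries spanned most of that range. Its log2 fold change of 0.57 ± 1.45 was smaller than its error. Spry4 reached 510 and 833 counts (High), 133 and 1017 counts (Medium), and 1211 and 951 counts (Low). Medium replicate 1, at 22.8 CPM, stood far below the other 5 libraries, which lay between 105 and 199 CPM. That library also had the fewest rows with a count, at 5355. The log2 fold change of Low and Medium against High was -0.27 ± 0.75 and turned to 0.14 without that library, to 0.26 without High replicate 2, and to 0.13 when libraries were scaled by their sizes alone. Spred1, which acts together with the RAS regulator neurofibromin, was at 0 in all 6 libraries.

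**Figure D2:**
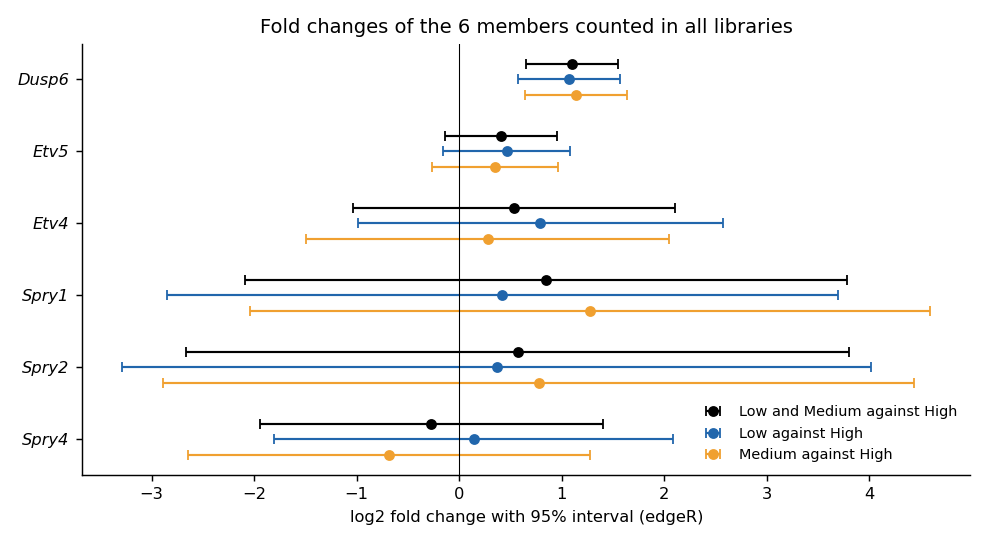
Log2 fold changes from edgeR with 95% intervals for the 6 genes counted in every library, for Low and for Medium against High and for both together. Dusp6 alone has intervals clear of 0, from 0.66 to 1.55 for Low and Medium together, while Spry1, Spry2 and Spry4 have intervals that reach from well below to well above 0.

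Of the 8 genes tested, 0 passed an adjusted p of 0.05 by edgeR for Low and Medium against High, where 10 of the 7729 genes tested did (0.129%). At an unadjusted p under 0.05 there were 2, Dusp6 higher and Dusp1 lower, against 425 genes overall (5.50%, of which 2.69% higher and 2.81% lower), and by DESeq2 1, Dusp6, against 375 of 6979 genes (5.37%, of which 2.99% higher). High did not overlap with the other 4 libraries for 2 genes that were higher, Dusp6 and Etv5 (8.06% of all genes), and for 1 that was lower, Dusp1 (10.1%), which makes 3 of the 8 beside 18.2% of all genes in either direction. Over the 8 genes the median log2 ratio of Low and Medium to High was 0.48, with groups at 3 counts or fewer set to that floor, beside 0.05 over all genes tested. That median was 0.90 with library sizes alone (0.44 over all genes), and leaving out High replicate 1 gave 0.11 where leaving out High replicate 2 gave 0.77. Medians of the fitted log2 fold changes from edgeR were 0.47 for the 8 genes and -0.12 over all genes tested. The sign over all genes therefore depended on the measure.

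For Low against High, 0 of the 8 passed by edgeR (0.0518% of all genes), and Dusp6 alone had an unadjusted p under 0.05 (0.00073, against 4.27% of all genes, 2.56% on the higher side). DESeq2 called Dusp6 alone, with an adjusted p of 1.4e-05 (4.39% of all genes, 2.14% on the higher side). For Medium against High, 0 passed by edgeR (0.0129%), 1 had an unadjusted p under 0.05, which was Dusp6 (4.04%, of which 2.39% higher), and DESeq2 called Dusp6 higher and Dusp5 lower (4.22%, of which 2.20% higher and 2.02% lower). Both Medium libraries exceeded both High libraries for Dusp6, Etv5, Spry1 and Spry2 (16.2% of all genes) and lay below them for Dusp1 and Dusp5 (18.6%), so that 6 of the 8 did not overlap, against 34.8% of all genes in either direction. For Low against High 3 of the 8 did not overlap, Dusp6 and Etv5 higher (19.4% of all genes) and Dusp1 lower (18.0%), against 37.4% of all genes in either direction. These comparisons share the High libraries. For Low against Medium 0 of the 8 passed by edgeR, as did 0 of all genes (0.00%), and 0 had an unadjusted p under 0.05 (1.51% of all genes, 117 of them). DESeq2 called 1 of the 8, Dusp5, higher in Low (1.59% of all genes, 0.797% on the higher side). Both Low libraries lay above both Medium libraries for Dusp5 (16.3% of all genes) and below them for Spry1 (12.6%), which makes 2 of the 8, against 29.0% of all genes in either direction.

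**Figure D3:**
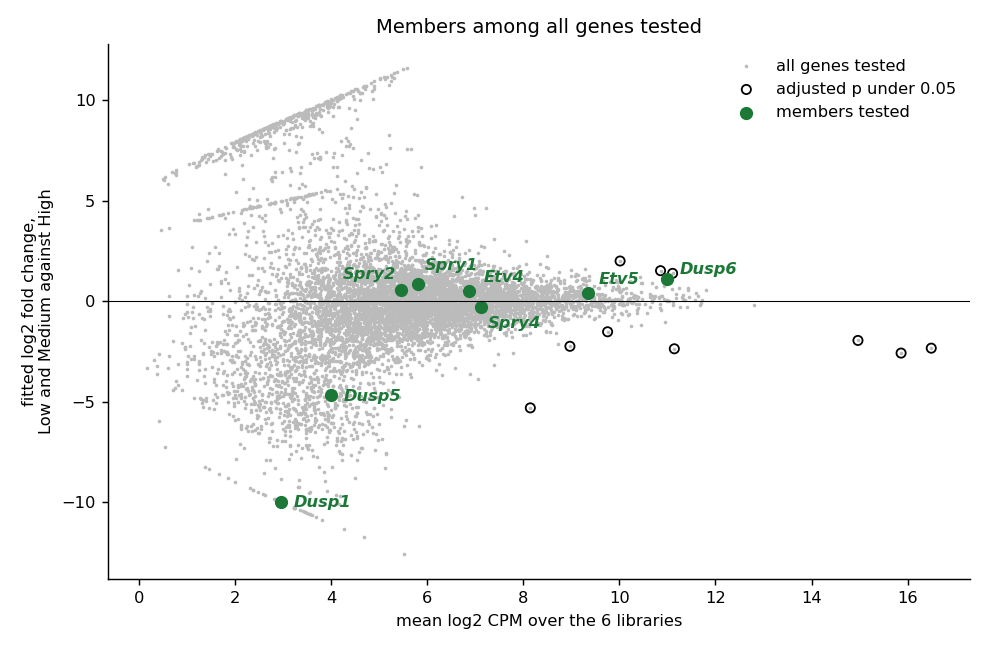
Fitted log2 fold change of Low and Medium against High for the 7729 genes tested, against the mean log2 CPM over the 6 libraries, with the 8 genes as filled points and the 10 genes past an adjusted p of 0.05 as open circles. Dusp6 sits at a high level with a log2 fold change of 1.11, Dusp1 and Dusp5 lie far below 0 because 4 and 2 of their libraries hold 0 counts, and those 2 fitted values depend on the prior count.

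Whether Dusp6 passes the threshold depended on the test, the filter, the normalization and the libraries kept. Its log2 fold change for Low and Medium against High lay between 1.005 and 1.503 under 14 other settings, and its adjusted p was under 0.05 in 10 of them. It was not under 0.05 with RLE normalization (0.144), with ribosomal RNA rows left out (0.0737), or without High replicate 1 (0.126) or High replicate 2 (0.106), all by edgeR. Under the same 14 settings the adjusted p of Etv5 was never under 0.05, and its log2 fold change lay between 0.25 and 0.81.

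**Figure D4:**
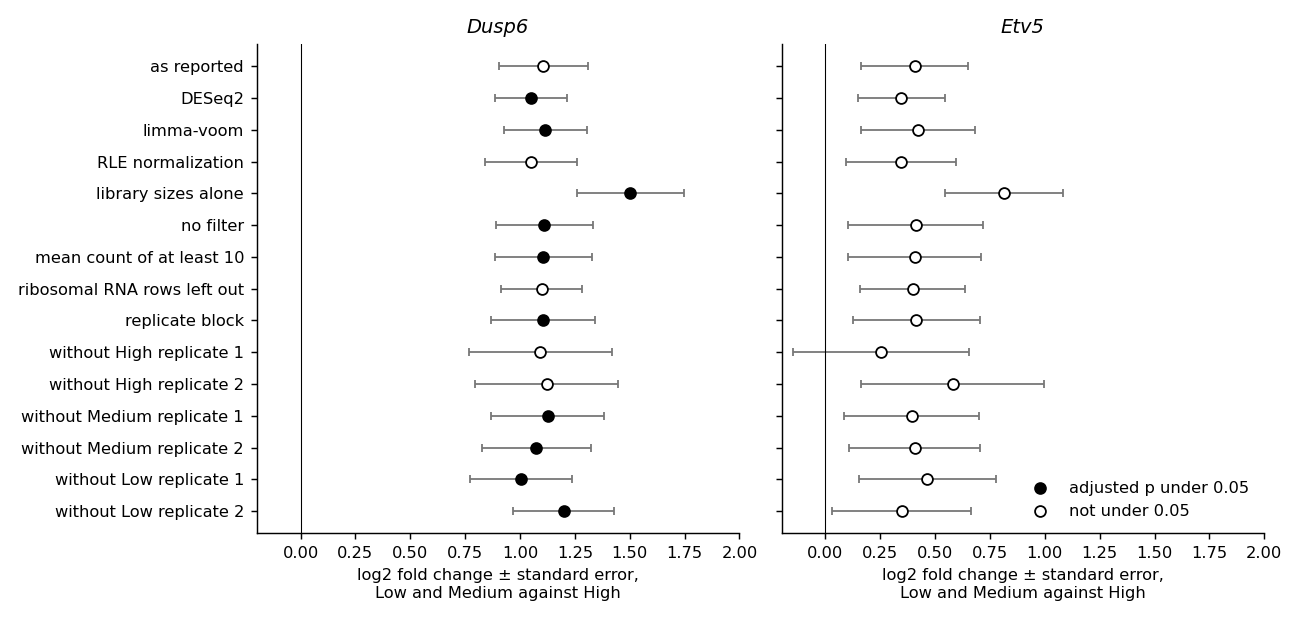
Log2 fold change ± standard error of Dusp6 and Etv5 for Low and Medium against High, as reported and under each other setting, with filled points for an adjusted p under 0.05. Dusp6 stays between 1.005 and 1.503 with 10 of 14 settings filled, and Etv5 stays between 0.25 and 0.81 with none filled.

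The rest of the pathway was read from 5 lists, for Low and Medium against High, and edgeR called none of their genes (0.129% of all genes). Of the 14 FGF ligands 13 are in the tables, none passed the filter, and 12 were at 0 in all 6 libraries. The exception was Fgf2, basic FGF, with 20 counts in Low replicate 2. Basic FGF protein was supplied by the medium, which these counts do not see.

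Of the 17 FGF and EGF receptors and co-receptors, 7 were tested, with a median log2 ratio of 0.73, which was 0.25 without High replicate 1 and 1.64 without High replicate 2. By film it was -0.85 for Low and 1.37 for Medium against High. On leaving out 1 library these ran from -1.59 to 0.36 for Low and from -2.36 to 2.09 for Medium, so neither sign was stable. For Low and Medium together the median of the fitted log2 fold changes was 0.35. Fgfr1, the main FGF receptor of neural progenitors, had 85 and 563 counts in High and 0 in the other 4 libraries. That is at least 156-fold lower in Low and Medium at the floor of 3 counts per library, which covers counting error alone. The edgeR adjusted p was 0.531 (unadjusted 0.00535), with a wide gap between the High replicates, at 17.5 and 134 CPM. As given for Dusp1, 37 of the 7729 genes tested (0.479%) had this pattern, and 47 (0.608%) showed the reverse. Fgfr2 and Fgfr4 were at 0 throughout and Fgfr3 had 398 counts in Low replicate 1 alone, genes named after their values were seen, as is Egfr, with 80 counts in High replicate 1 and 2 in Low replicate 2. Sdc4, a heparan sulphate co-receptor, gave 152 ± 29.2 CPM (High), 68.5 ± 36.8 CPM (Medium) and 36.7 ± 19.2 CPM (Low). It was lower in each Medium and Low library than in High, at a log2 fold change of -1.60 ± 0.81 (edgeR adjusted p = 0.801). Sdc1 was at 24.9 ± 5.86 CPM (High), 35.1 ± 49.6 CPM (Medium) and 13.8 ± 4.73 CPM (Low). Medium overlapped with both other films, and both Low libraries lay below both High libraries (18.0% of all genes).

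Of the 19 adaptors and kinases of the RAS-RAF-MEK-ERK cascade, 16 were tested, and the median log2 ratio was -0.35 (-0.62 without High replicate 2, -0.22 without High replicate 1). The median of their fitted log2 fold changes was -0.39. Map2k1, the MEK1 kinase, was at 164 ± 84.7 CPM (High), 110.3 ± 14.4 CPM (Medium) and 143 ± 28.1 CPM (Low). High overlapped with both other films, and both Low libraries lay above both Medium libraries (16.3% of all genes). The phosphatase Ptpn11, which relays receptor signals to RAS, overlapped between all films at 242 ± 39.6, 217 ± 66.7 and 245 ± 28.0 CPM. Among the 16, 0 genes were higher and 4 lower in all 4 Medium and Low libraries, against 8.06% and 10.1% of all genes.

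Of 20 other negative regulators 9 were tested. Their median log2 ratio of 0.03 was not stable, at 1.47 without High replicate 1, 0.43 without Medium replicate 1, 0.46 without Low replicate 2, 0.11 without High replicate 2 and -0.075 without Low replicate 1. It also depended on the measure, as the median of their fitted log2 fold changes was -0.49. Dusp7, a close relative of Dusp6 that also acts on ERK in the cytoplasm, had counts of 765 and 322 (High), 1122 and 1786 (Medium), and 1189 and 984 (Low). All 4 Medium and Low libraries lay above both High libraries, at a log2 fold change of 0.79 ± 0.51 (edgeR adjusted p = 0.801). Pea15, which keeps ERK in the cytoplasm, gave 351 ± 144 CPM (High), 108 ± 132 CPM (Medium) and 139 ± 18.6 CPM (Low), lower in all 4 Medium and Low libraries (log2 fold change -1.52 ± 0.76, adjusted p = 0.801). Errfi1, the feedback inhibitor of EGF receptors, overlapped at 105 ± 67.5, 47.5 ± 33.1 and 75.1 ± 42.9 CPM.

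Of 17 other ERK target and effector genes 16 were tested. Their median log2 ratio was 0.14 and lay between -0.12 and 0.22 on leaving out 1 library, below 0 without High replicate 2, Medium replicate 2 or Low replicate 1. The median of their fitted log2 fold changes was -0.007. Ccnd1, the cyclin that carries growth factor signals into the cell cycle, reached 3461 ± 768 CPM (High), 3112 ± 50.4 CPM (Medium) and 3440 ± 180.0 CPM (Low), with a log2 fold change of -0.08 ± 0.18. Phlda1 was lower in all 4 Medium and Low libraries, at 1338 ± 45.7, 809 ± 27.0 and 983 ± 68.5 CPM (log2 fold change -0.59 ± 0.20, edgeR unadjusted p = 0.0151 and adjusted p = 0.778). Etv1, the remaining PEA3 factor, overlapped at 472 ± 91.7, 441 ± 242 and 555 ± 203 CPM. At an unadjusted p under 0.05 there were 1 gene higher, Elk3, and 4 lower, namely Phlda1 and the genes Fosl1, Ier2 and Ier3, which like Elk3 are named after their values were seen, beside 2.69% of all genes higher and 2.81% lower. None of the 16 was higher in all 4 Medium and Low libraries than in both High libraries (8.06% of all genes) and 6 were lower (10.1%), those 4 and the AP-1 genes Fos and Junb, also named after their values were seen, at 0.0893 and 0.315 of their High level by mean CPM (edgeR adjusted p = 0.801 and 0.957). For Fosl1, an AP-1 subunit that ERK stabilizes, the log2 fold change was -3.17 ± 0.92 (edgeR adjusted p = 0.557).

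**Figure D5:**
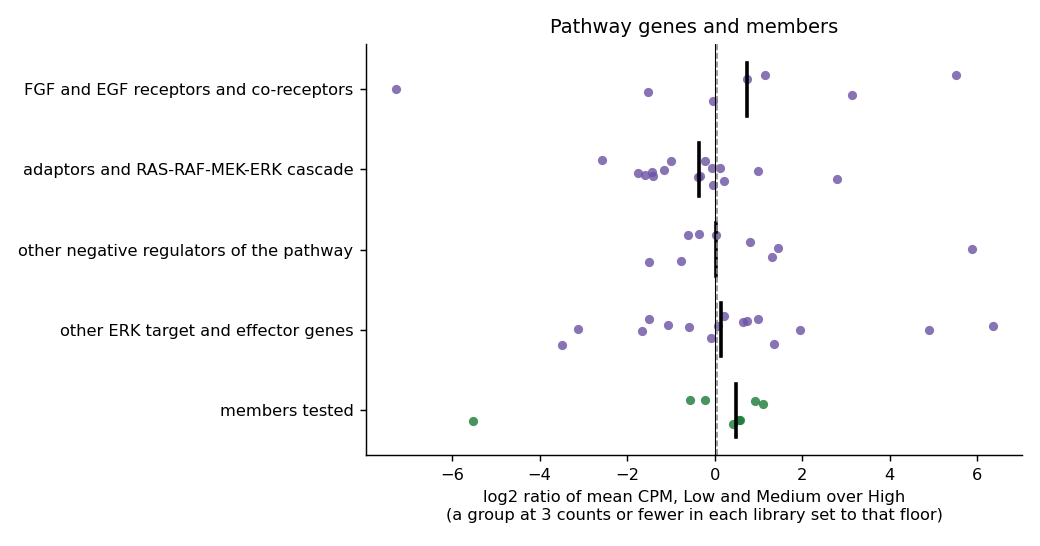
Log2 ratio of the mean CPM of Low and Medium to that of High for each gene tested of the 10 genes and of the pathway lists, with a group at 3 counts or fewer in each library set to that floor. Black bars are list medians, 0.48 for the 8 genes tested, 0.73 for receptors and co-receptors, -0.35 for the cascade, 0.03 for other negative regulators and 0.14 for other ERK targets, values that move when 1 library is left out, and the dashed line is the median of all genes tested, 0.05.

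The genes whose profile over the 6 libraries was most like that of Dusp6 were sought among 4314 genes with a mean log2 CPM of at least 5, by Pearson's r of log2(CPM + 1). They were Prpf19 (r = 0.997), Wtap (0.995), Ints7 (0.986), Cox7c (0.985) and Tamm41 (0.984). Prpf19, a splicing factor, was at 254 and 277 CPM in High and 549 to 808 CPM in the other libraries. Cox7c, a subunit of cytochrome c oxidase, was at 1008 and 1110 CPM in High and 2473 to 3259 CPM in the others. Ints7 and Tamm41 were at 0 in both High libraries. Among the 10 genes themselves the correlation with Dusp6 was 0.75 for Etv5, 0.66 for Spry2, 0.61 for Spry1, 0.45 for Etv4, -0.21 for Spry4, -0.45 for Dusp5 and -0.97 for Dusp1, over the same 6 libraries of 3 films, and no test is attached to these values.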

How the data were processed

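QuantSeq libraries, primed on the poly(A) tail and read from the 3′ end, were sequenced single-end by the authors, aligned with Bowtie2, and counted per gene with Bedtools from unique and multiple alignments. The submitters' processing notes name the build rn6. The annotation and tool versions are not given in the sources used here. What the authors deposited are whole-number counts per gene, 1 table per library, without normalization. PCR duplicates and molecular identifiers are not mentioned, so floors cover counting error only, and multiple alignments leave near-identical genes uncertain. The labels name Trizol for RNA isolation and the methods name Ribospin. Of the 17048 rows, 167 repeat a symbol and were kept apart, and 0 columns of other samples were present.

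From these counts, R 4.3.3 with edgeR 4.0.16 was used with filterByExpr (minimum count of 10), which left 7729 genes, TMM normalization and 1 quasi-likelihood fit of the 3 film means over all 6 libraries, with Benjamini-Hochberg adjustment over all genes tested and a threshold of 0.05. The common dispersion was 2.04 with 3 residual and 6.96 prior degrees of freedom. Comparisons were Low and Medium against High, Low against High, Medium against High and Low against Medium. CPM are TMM-normalized counts per 1e6. Folds against a group at 3 counts or fewer in each library were computed from 3 counts per library and are lower bounds. Totals were 5124863 to 6213676 counts. With 2 libraries against 2 an exact permutation test cannot go below p = 0.333.

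The alternatives were DESeq2 1.42.0, limma 3.58.1 (voom), RLE normalization, library sizes alone, other filters, ribosomal RNA rows left out, a replicate block, the groups compared alone, and leaving out each library. Named pathway genes are the 3 of each list with the highest mean log CPM and any with an adjusted p under 0.05, apart from 1 that is not reported here. Others were chosen after their values were seen. The 10 genes, the lists and the tests were chosen with earlier results of these data known. Promoters are from RefSeq (GRCr8), another build than that of the files, and were matched by symbol.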

Additional observations from a re-analysis of the deposited data

How the results depend on the processing

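Counts of genes called moved with the method. Genes called numbered 10 for Low and Medium against High, 4 for Low against High, 1 for Medium against High and 0 for Low against Medium. In the same order they were 375, 300, 307 and 116 by DESeq2, 23, 16, 14 and 0 by limma-voom, 68, 34, 48 and 5 without a filter, and 56, 30, 40 and 0 with a mean count of at least 10. With library sizes alone they were 14, 0, 0 and 0, with ribosomal RNA rows left out 7, 2, 1 and 0, and in fits on only the groups compared 0 for Low and 0 for Medium against High. Leaving out each library gave 34 to 242, 19 to 65, 11 to 275 and 0 to 194, with 242, 275 and 194 reached without Medium replicate 2 and 65 without Low replicate 2.

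Of the 10 genes, edgeR called 0 in each comparison. For Low and Medium against High, 1 was called by DESeq2, limma-voom, library sizes alone, no filter, the mean filter and the replicate block, and 0 to 1 when a library was left out. For Low against High it was 1 by DESeq2, limma-voom and both filters (0 to 1 on leaving out a library), and for Medium against High 2 by DESeq2 and 1 by limma-voom and both filters (0 to 1). For Low against Medium it was 1 by DESeq2. The gene was Dusp6 each time, apart from Dusp5 by DESeq2 in the comparisons with Medium. The cause was not tested.

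With the replicate number as a block, 57, 30, 39 and 0 genes were called, and 1 of the 10, Dusp6, in each comparison with High (adjusted p = 0.00448, 0.0369 and 0.0172). The deviations of libraries with the same number correlated at 0.0066, 0.0034 and 0.0073 between films, so the numbers were not read as pairs.

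The sign of a log2 fold change turned when a library was left out for Spry1 (-0.014 to 3.34) and Spry4 (-1.31 to 0.26) for Low and Medium against High, where Spry4 was also 0.13 with library sizes alone. It turned for Dusp5 (-0.60 to 1.05), Spry1 (-0.44 to 2.91), Spry2 (-0.24 to 0.97) and Spry4 (-0.25 to 0.67) for Low against High, and for Spry4 (-2.76 to 0.14) and Etv4 (-0.37 to 0.70) for Medium against High. For Low against Medium it turned for Dusp6 (-0.28 to 0.11), Spry2 (-1.02 to 0.015), Etv4 (-0.24 to 1.16) and Etv5 (-0.011 to 0.22).

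The median log2 ratio of the receptors and co-receptors, 0.73, was 1.17 with library sizes alone and 0.25 to 1.64 on leaving out a library. Leaving out a library gave 0 to 1 called genes in the cascade, 0 to 1 among other negative regulators and 0 to 3 among other ERK targets. Library sizes alone moved the number of genes with a fitted log2 fold change above 0. For Low and Medium against High it went from 3548 of 7729 to 4499, for Low against High from 3902 to 4825, and for Medium against High from 3678 to 4473. The median log2 ratio of the other negative regulators, 0.03, was 0.37 with library sizes alone, that of the cascade -0.041 and that of other ERK targets 0.55. Low counts limit what can be seen in Dusp1 and Dusp5, and the spread between replicates in Etv4 and the sprouty genes.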
